A study of Capra hircus with 6 samples.

Results

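The expression of the genes of non-homologous end-joining, the DNA repair pathway that rejoins broken chromosome ends without a template, was described in goat intramuscular preadipocytes after silencing of LIPG. The list had 10 genes, taken by gene name from the deposited expression table: the Ku subunits XRCC6 and XRCC5, the kinase gene PRKDC, the nuclease gene DCLRE1C, the polymerase genes POLL and POLM, the ligation genes XRCC4, LIG4 and NHEJ1, and RAD50. Of these, 9 had a row of that name among the 27271 genes of the files. RAD50, whose protein holds broken ends together in the MRE11 complex, had no row under its name and was not analysed here.

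Intramuscular preadipocytes are the fat precursor cells that lie between muscle fibers, and LIPG encodes endothelial lipase. The cells were transfected with either an siRNA directed at LIPG (Si-LIPG groups, n = 3) or a control siRNA (NC groups, n = 3). The NC groups carried the genotype label WT and the Si-LIPG groups the label LIPG Knock down. All 6 libraries came from cells kept for 48 h in induction medium with 50 μmol/L oleic acid, so that both groups had received an siRNA and the differentiation treatment. The study's methods speak of 3 biological replicates, but no source used here says whether the libraries of a group came from separate animals or cultures, so p values measure the spread between these libraries, which may be technical.

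In this pathway, the ring formed by XRCC6 and XRCC5 slides onto a broken DNA end and recruits the kinase encoded by PRKDC. The kinase activates the nuclease Artemis, encoded by DCLRE1C, which opens hairpins and trims overhangs, and the polymerases lambda and mu, encoded by POLL and POLM, fill small gaps. LIG4 with its partner XRCC4 then seals the strands, with help from the XLF protein encoded by NHEJ1. The pathway works throughout the cell cycle and is the main route of double-strand break repair in cells that have stopped dividing.

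The depth on genes was low, though each library had 36451898 to 52638817 reads in all. Of these, 91.6% to 93.7% fell on no counted feature and 0.909% to 1.22% did not align. Why so few reads were counted on genes was not tested. The files hold between 524776 and 703680 reads counted on genes across the NC libraries and between 864882 and 1051230 across the Si-LIPG libraries, which is 1.31% ± 0.279 (SD, n = 3) and 2.44% ± 0.566 (SD, n = 3) of all reads (exact permutation test, two-sided, p = 0.1, the lowest value this permutation test can give for 3 libraries against 3). A count of 0 in a library allows up to 3 counts, or a CPM between 2.85 and 5.72, and this limit covers counting error only. LIPG itself was counted 0, 2 and 0 times in NC 1, 2 and 3 and 0, 2 and 2 times in Si-LIPG 1, 2 and 3. These counts are too few to show whether it was silenced, and why they are low was not tested. The study reported the knockdown by RT-qPCR and Western blot. ND6, which lies on the other strand of the mitochondrial genome than the other mitochondrial protein genes, had counts per kb between 22.6 and 99.3 times the median over those 12 genes. The library protocol keeps the strand, and the strand setting of the counting is not given in the sources used here. Whether the reads counted on an end-joining gene came from its own transcript or from the opposite strand was therefore not tested, and every value below is a level of reads counted on the gene. NC 1 stood apart from the other libraries, at -98.1 on the first principal component against -5.50 and -4.00 for NC 2 and NC 3 and 19.1 to 45.4 for the Si-LIPG libraries. Of the preadipocyte and mesenchymal markers, 11 of 12 were counted, DLK1 being at 0, and their summed level was 13074 to 27228 CPM over counted reads across the NC libraries and 38643 to 41148 CPM across the Si-LIPG libraries. COL1A1, COL1A2 and VIM held 40.9%, 42.1% and 12.4% of these reads. ENG went the other way, with 468 to 591 CPM across the NC libraries and 333 to 435 CPM across the Si-LIPG libraries, and THY1 overlapped between the groups. The summed level of 7 muscle cell markers, all counted, was 276 to 387 CPM across the NC libraries and 475 to 531 CPM across the Si-LIPG libraries. DES and MYH3 held 41.8% and 45.6% of these reads. PAX7, MYOD1 and DES did not overlap between the groups. MYH3 (126 to 188 against 180 to 238 CPM), MYF5, MYOG and CKM did. Marker levels are without the TMM normalization of the tests below, which lowers Si-LIPG levels against NC levels (factors 1.06 to 1.35 against 0.608 to 0.954). The part of either difference in the results was not tested. Of 6 endothelial markers, CDH5, KDR, TEK and CLDN5 were at 0, and PECAM1 and VWF were counted in 2 and 1 libraries. Of 5 immune markers, PTPRC was at 0, CD68, CD14 and CSF1R were counted in all 6 libraries and AIF1 in 5, and their summed level was 27.0 to 43.2 CPM across the NC libraries and 26.5 to 33.3 CPM across the Si-LIPG libraries. Of 7 adipocyte markers, LPL was at 0 and PPARG and CIDEC were counted in all 6 libraries, and the summed level was 9.53 to 38.2 CPM across the NC libraries and 17.1 to 42.7 CPM across the Si-LIPG libraries.

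The end-joining genes were counted rarely. Together the 9 genes had 107, 65 and 84 reads in NC 1, 2 and 3 and 117, 178 and 192 reads in Si-LIPG 1, 2 and 3. In NC 1, 3 of the 9 genes had a count, in NC 2 and NC 3 there were 5, in Si-LIPG 1 there were 6, and in Si-LIPG 2 and 3 all 9 were counted. The number of all genes with a count moved the same way, from between 8927 and 10603 across the NC libraries to between 11545 and 12344 across the Si-LIPG libraries. DCLRE1C alone held 90.7%, 69.2% and 65.5% of the end-joining reads across the NC libraries and 46.2%, 28.1% and 22.9% across the Si-LIPG libraries. This share needs no scaling between libraries, and the groups did not overlap, but it also falls when the other genes gain reads. How often such a share separates the groups in other gene sets was not tested. The other 8 genes together had 10, 20 and 29 reads across the NC libraries and 63, 128 and 148 across the Si-LIPG libraries. In bulk RNA, a change in the number of cells that use a gene and a change of RNA per cell cannot be told apart.

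**Figure D1:**
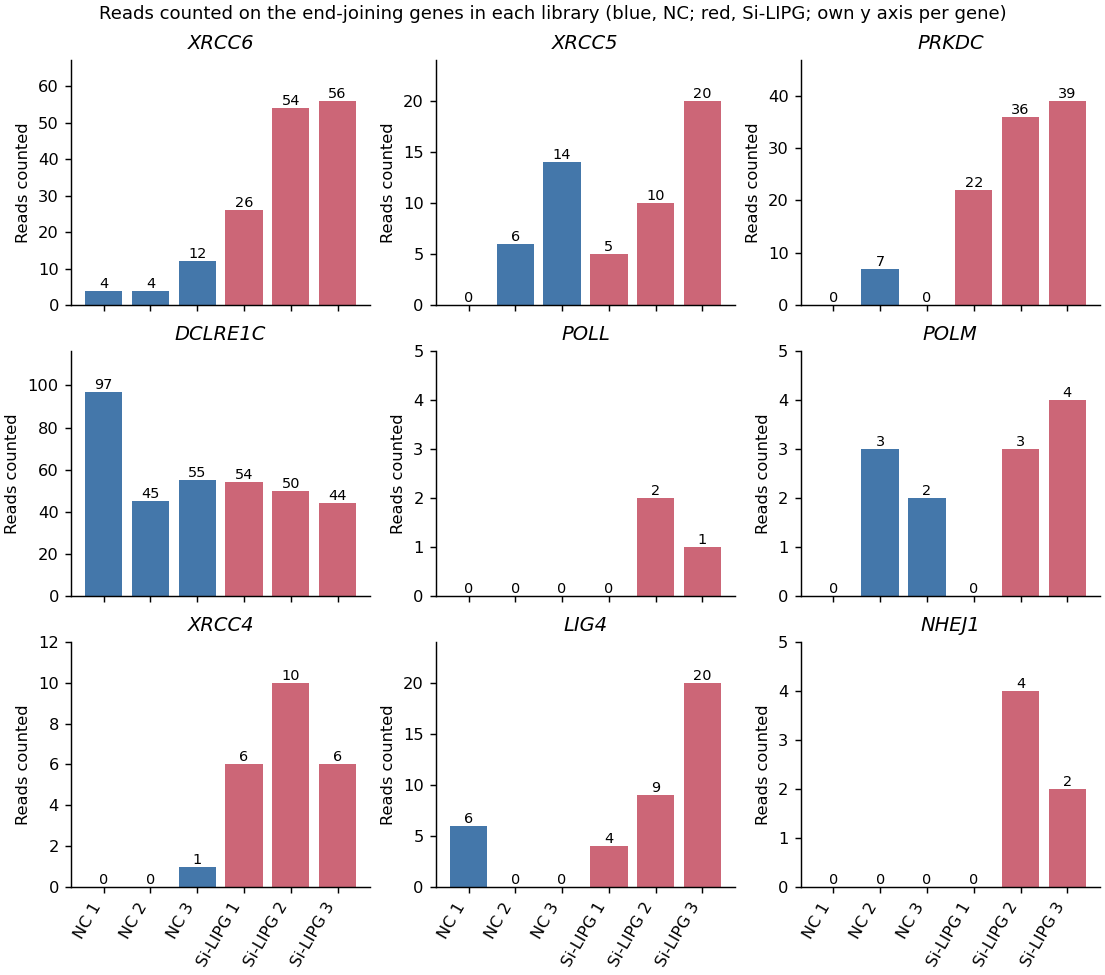
Reads counted on each of the 9 end-joining genes (y axis, counts as deposited, own scale for each gene) in NC libraries 1 to 3 (blue) and Si-LIPG libraries 1 to 3 (red). DCLRE1C was counted between 44 and 97 times in every library, and XRCC6, PRKDC and XRCC4 were counted more often in each Si-LIPG library than in any NC library.

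Groups were compared over all genes by the quasi-likelihood test of edgeR with TMM normalization, which scales libraries so that most genes do not change. The criterion was a fold change over 1.5 at an unadjusted p under 0.05. Only XRCC6, PRKDC and DCLRE1C had enough reads to be tested, and all 3 met the criterion, XRCC6 and PRKDC higher and DCLRE1C lower in the Si-LIPG groups. Among all 6574 tested genes, 7.83% met it as higher and 12.9% as lower. XRCC6 and PRKDC passed the filter on low counts through the 3 Si-LIPG libraries (1 and 0 NC libraries reached its limit of 12.8 CPM), and a gene that enters only through its higher group is set to differ, so the count of 3 of 3 is a description only. DCLRE1C passed it in all 6 libraries. With Benjamini-Hochberg adjustment over all genes tested, DCLRE1C had an adjusted p under 0.05 in edgeR's test and the other pair did not, where 6.50% of all tested genes had one.

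Of the genes of the Ku ring, XRCC6 separated the groups and XRCC5 did not. XRCC6 (ENSCHIG00000012853), which encodes Ku70, had counts of 4, 4 and 12 in NC 1, 2 and 3 and of 26, 54 and 56 in Si-LIPG 1, 2 and 3. Every Si-LIPG library lay above every NC library, also after normalization, where the lowest Si-LIPG library had 28.3 CPM and the highest NC library 18.3 CPM. The TMM-normalized CPM was 12.6 ± 5.66 (SD, n = 3) for NC and 36.8 ± 7.47 (SD, n = 3) for Si-LIPG. XRCC6 was higher by a log2 fold change of 1.53 (standard error 0.59), or 2.88-fold, which met the criterion on the unadjusted p, while its adjusted p was 0.141 in edgeR's test. The difference lay at percentile 95.0 of the log2 fold changes of all tested genes, a set that XRCC6 entered through the Si-LIPG libraries. Without a filter it lay at percentile 81.7 of all genes with a count.

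XRCC5 (ENSCHIG00000022047), which encodes Ku80, was counted 0, 6 and 14 times in NC 1, 2 and 3 and 5, 10 and 20 times in Si-LIPG 1, 2 and 3. These groups overlapped. Its TMM-normalized CPM was 10.6 ± 10.7 (SD, n = 3) against 9.15 ± 4.47 (SD, n = 3), which did not differ beyond the spread of the libraries, and there were too few reads for the main test. Without a filter on low counts, edgeR gave a log2 fold change of -0.24 with a standard error of 1.00, so that a difference as large as that of XRCC6 lay within about 2 standard errors. Per length, XRCC6 had 5.72 ± 3.15 FPKM (SD, n = 3) and XRCC5 3.77 ± 3.77 FPKM (SD, n = 3) for NC, which did not differ beyond their spread. In the Si-LIPG groups, XRCC6 had 25.3 ± 7.63 FPKM (SD, n = 3) and XRCC5 4.41 ± 2.55 FPKM (SD, n = 3), and XRCC6 was above XRCC5 in every Si-LIPG library.

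PRKDC (ENSCHIG00000013822), the gene of the catalytic subunit of the DNA-dependent protein kinase, was counted 0, 7 and 0 times in NC 1, 2 and 3 and 22, 36 and 39 times in Si-LIPG 1, 2 and 3. The Si-LIPG libraries were close to each other and all lay above NC 2, the only NC library with reads of the gene. The TMM-normalized CPM was 4.06 ± 7.04 (SD, n = 3) for NC and 26.6 ± 2.32 (SD, n = 3) for Si-LIPG. The log2 fold change was 2.56 with a standard error of 0.98 (edgeR adjusted p = 0.141), at percentile 98.9 of all tested genes. PRKDC entered that set through the Si-LIPG libraries, and without a filter it lay at percentile 90.2 of all genes with a count. The ratio of the group means was 6.55, and its size rested on NC 2. With NC 2 left out, the remaining NC libraries were both at 0, so no fold could be estimated. PRKDC has the longest model of the 9 genes, 12503 bases in the authors' length correction against 993 to 2736 for the others, so that its level per length was low, with 0.310 ± 0.537 FPKM (SD, n = 3) for NC and 2.64 ± 0.528 FPKM (SD, n = 3) for Si-LIPG.

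DCLRE1C (ENSCHIG00000015648), the Artemis gene, went the other way. It was counted 97, 45 and 55 times in NC 1, 2 and 3 and 54, 50 and 44 times in Si-LIPG 1, 2 and 3, so that, NC 1 apart, similar numbers of reads stood against more reads on genes across the Si-LIPG libraries. The TMM-normalized CPM was 304, 78.3 and 83.8 across the NC libraries and 58.9, 39.4 and 31.1 across the Si-LIPG libraries. No library of one group reached into the other, but NC 1 was far above the rest. DCLRE1C fell with a log2 fold change of -1.82 with a standard error of 0.50 (edgeR adjusted p = 0.0453), or 3.53-fold, and ranked 375 by p among the tested genes. Without NC 1 the log2 fold change was -0.92 (adjusted p = 0.213 in edgeR's test), still at the criterion on the unadjusted p. Of the 9 genes it had the highest level per length in the NC groups, 50.7 ± 28.2 FPKM (SD, n = 3), and in each NC library, with 83.3 FPKM in NC 1 and 33.7 and 35.2 FPKM in NC 2 and NC 3. In the Si-LIPG groups it had 23.3 ± 4.65 FPKM (SD, n = 3), which did not differ from XRCC6 beyond the spread between libraries.

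**Figure D2:**
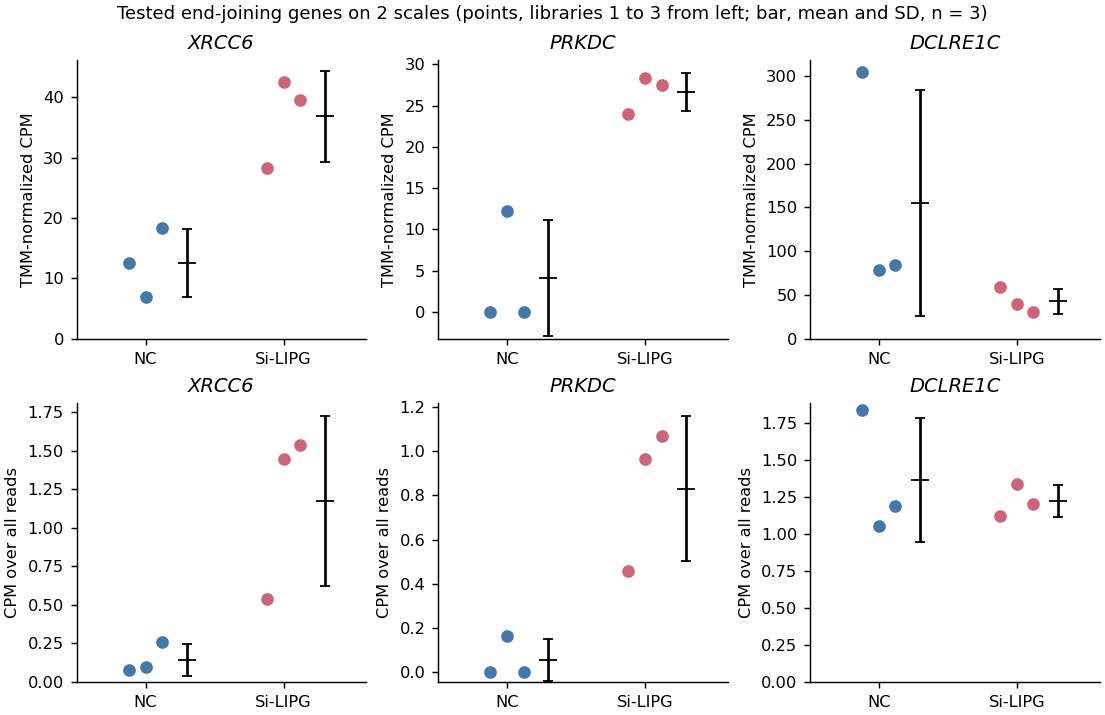
XRCC6, PRKDC and DCLRE1C in each library (points, NC blue and Si-LIPG red, with mean and SD of 3) as TMM-normalized CPM in the upper row and as CPM over all reads in the lower row. XRCC6 and PRKDC separated the groups on both scales, and DCLRE1C separated them after TMM normalization only.

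The fall of DCLRE1C was not seen when the counts were scaled to all reads. Expressed as CPM over all reads of a library, whether counted on a gene or not, it had 1.84, 1.06 and 1.19 across the NC libraries and 1.12, 1.34 and 1.21 across the Si-LIPG libraries, and the groups overlapped. On this scale its log2 fold change was -0.16 with a standard error of 0.49 (edgeR adjusted p = 0.802). XRCC6 had 0.143 ± 0.102 CPM over all reads (SD, n = 3) for NC and 1.17 ± 0.550 (SD, n = 3) for Si-LIPG, a log2 fold change of 3.01 (adjusted p = 0.0462 in edgeR's test). PRKDC had 0.0548 ± 0.0949 and 0.830 ± 0.327 CPM over all reads (SD, n = 3 each), a log2 fold change of 3.91 (adjusted p = 0.0538 in edgeR's test). XRCC6 and PRKDC passed the filter through the Si-LIPG libraries, so these adjusted p values are a description only. With TMM and without a filter, edgeR's test gave adjusted p values of 0.208 for XRCC6 and 0.0712 for PRKDC. Of all tested genes, 46.1% were higher and 0.0304% lower at the criterion on this scale.

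The median log2 fold change of all tested genes was 0.16 with TMM factors, 0.71 without them and 1.58 when scaled to all reads. Relative to this median, the change of XRCC6 was 1.37, 1.39 and 1.42 under the same 3 scalings. That of PRKDC was 2.40, 2.33 and 2.33 above the median, and that of DCLRE1C was -1.98, -1.83 and -1.74. With TMM factors and without NC 1, DCLRE1C was at -1.04 relative to the median. The order of the 3 genes against the bulk of the genes was the same under these scalings. A scaling moves all genes of a library by the same factor, so values relative to the median hardly change by construction. Their agreement is no further support for the changes, and the size of the shift of the bulk was set by the scaling.

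**Figure D3:**
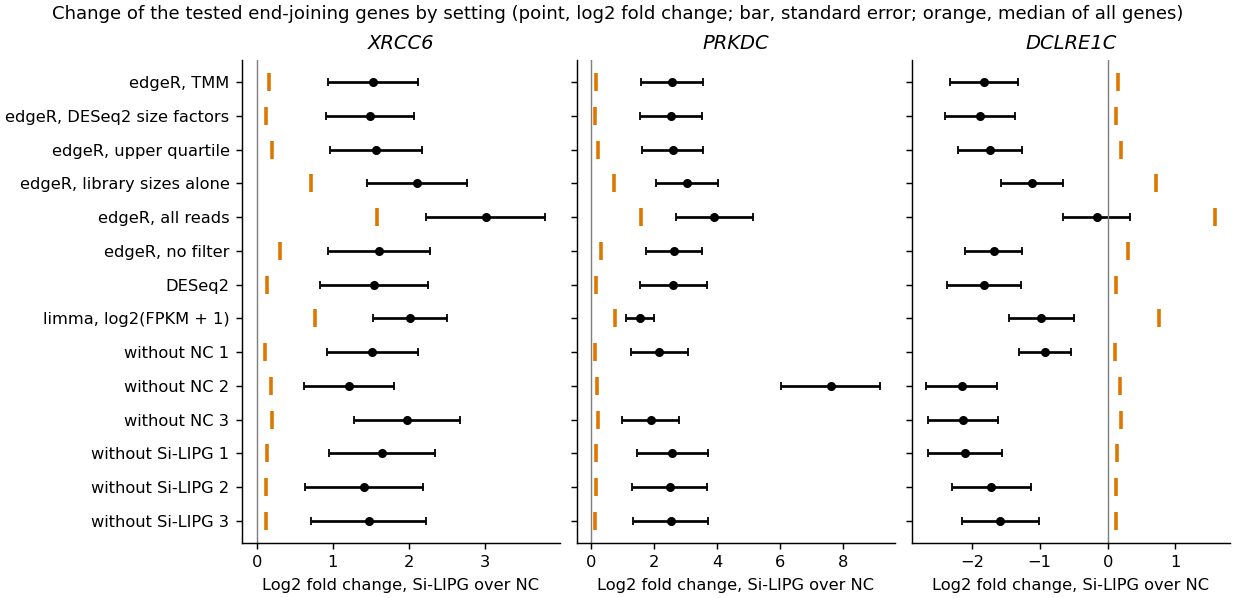
Log2 fold change (x axis, Si-LIPG over NC) of XRCC6, PRKDC and DCLRE1C with its standard error under 14 settings, with the median of all genes tested in that setting as an orange mark. XRCC6 and PRKDC lay right of the median and DCLRE1C left of it in each setting shown. The value of PRKDC without NC 2 is a fit against libraries at 0 and is no estimate of size.

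Single libraries decided some calls. XRCC6 kept its direction in all 6 fits that left out 1 library and met the criterion in 3 of them. Its log2 fold change was 1.21 without NC 2, 1.41 without Si-LIPG 2 and 1.47 without Si-LIPG 3, where the criterion was missed. PRKDC met the criterion in 5 of the 6 fits and missed it without NC 3, with a log2 fold change of 1.88. The fit without NC 2, against NC libraries at 0, is among these 5. All 6 fits kept the genes of the main filter, which XRCC6 and PRKDC passed through the Si-LIPG libraries, so their numbers of fits are a description only. DCLRE1C met the criterion in all 6, and had an adjusted p under 0.05 in edgeR's test in 2 of them, without NC 3 and without Si-LIPG 1.

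The gap-filling polymerases were near the limit of detection. POLL (ENSCHIG00000003400) was counted 0 times in every NC library and 0, 2 and 1 times in Si-LIPG 1, 2 and 3, no more than the 3 counts that a count of 0 allows, so no fold was computed. POLM (ENSCHIG00000022903) was counted 0, 3 and 2 times across the NC libraries and 0, 3 and 4 times across the Si-LIPG libraries. Its groups overlapped, and its level was 1.78 ± 1.70 FPKM (SD, n = 3) for NC and 1.56 ± 1.37 FPKM (SD, n = 3) for Si-LIPG. In Si-LIPG 3, its 4 counts give a 95% exact binomial interval from 1.04 to 9.74 CPM over counted reads, wide enough to hold the value of every other library with a count of the gene.

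The ligation genes had more counts in the Si-LIPG groups, which also had more reads on genes, and none passed the filter. XRCC4 (ENSCHIG00000015879), the scaffold of the ligase, had counts of 0, 0 and 1 in NC 1, 2 and 3 and of 6, 10 and 6 in Si-LIPG 1, 2 and 3. No Si-LIPG library overlapped with an NC library, and the TMM-normalized CPM was 0.508 ± 0.879 (SD, n = 3) against 6.22 ± 1.84 (SD, n = 3). Over counted reads, 22 against 1 count is a ratio of 13.9 with a 95% counting interval from 2.25 to 573. Without a filter, edgeR gave XRCC4 a log2 fold change of 3.13 with a standard error of 1.98 (adjusted p = 0.506), so it did not pass a test.

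LIG4 (ENSCHIG00000001019), the ligase itself, was counted 6, 0 and 0 times in NC 1, 2 and 3 and 4, 9 and 20 times in Si-LIPG 1, 2 and 3. NC 1 exceeded each Si-LIPG library after TMM normalization, with 18.8 CPM against 14.1 CPM in the highest of them, and the groups overlapped. Without a filter, its log2 fold change was 0.87 with a standard error of 1.30 in edgeR. NHEJ1 (ENSCHIG00000014914), the XLF gene, was counted 0 times in all NC libraries and 0, 4 and 2 times across the Si-LIPG libraries. Against 3 counts over the NC groups as the limit, NHEJ1 was 1.26-fold higher over counted reads. This value takes the Si-LIPG counts as exact and leaves out the spread of the libraries, so it is no lower bound. Without a filter, edgeR gave NHEJ1 a log2 fold change of 3.56 with a standard error of 2.78 (adjusted p = 0.608). It did not pass a test, and Si-LIPG 1 was at 0 like the NC libraries.

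Of the 9 genes, XRCC4, XRCC6 and PRKDC were higher and DCLRE1C was lower in TMM-normalized CPM with no overlap between the groups. Among the 14848 genes with a count, 11.1% were higher and 7.47% lower without overlap, and among the tested genes these shares were 15.2% and 13.4%. Among genes of one complex, XRCC6 separated the groups and XRCC5 did not, and XRCC4 separated them and its partner LIG4 did not. The log2 fold changes of XRCC5 and LIG4 without a filter had standard errors of 1.00 and 1.30 in edgeR, too wide to show that partners differed. These differences between genes were not tested.

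**Figure D4:**
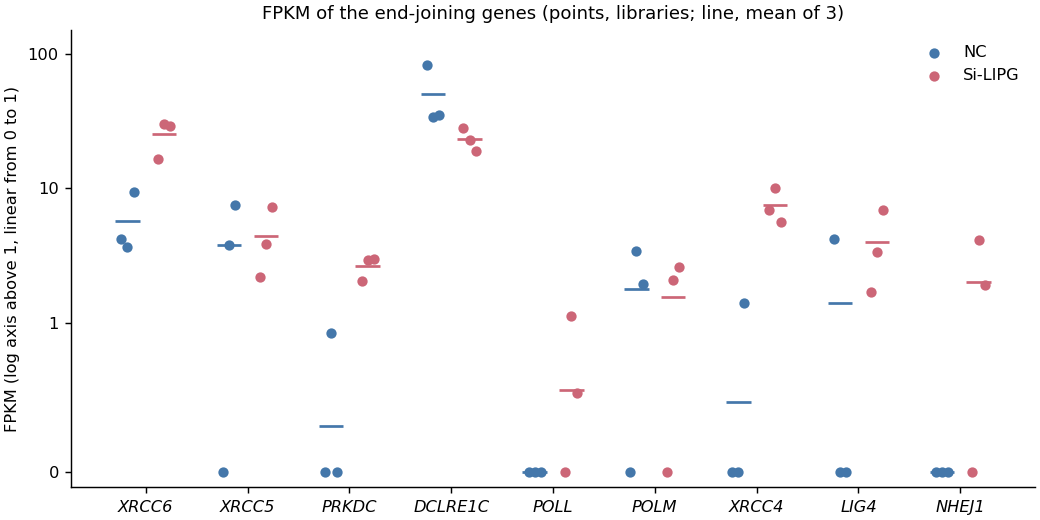
FPKM (counts scaled by gene length and by counted reads, log axis above 1) of the 9 end-joining genes in each library, NC in blue and Si-LIPG in red, with the mean of 3 as a line. DCLRE1C had the highest level in every NC library, and XRCC6 had the highest level in Si-LIPG 2 and 3.

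Levels per length put the genes in different orders in the groups. In the NC groups DCLRE1C was followed by XRCC6 and XRCC5, and all other genes had a mean under 2 FPKM, from 1.78 for POLM down to 0 for NHEJ1 and POLL. In the Si-LIPG groups XRCC6 and DCLRE1C led, and XRCC4 followed with 7.54 ± 2.29 FPKM (SD, n = 3). XRCC5, LIG4, PRKDC, NHEJ1 and POLM lay between 4.41 and 1.56 FPKM, and neighbours in this order did not differ beyond their spread. POLL was last with 0.550 ± 0.563 FPKM (SD, n = 3).

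Other genes that act on double-strand breaks were compared by lists written by hand. Of the other end-joining factors, 11 reported here were in the files and NBN, FEN1, TDP1 and WRN were tested, and 0 of these 4 met the criterion in edgeR's test. Their unadjusted p values were 0.285 or more. The genes of end joining by polymerase theta and PARP proteins had 5 of 6 members tested, PARP1, PARP2, LIG1, LIG3 and XRCC1, with 0 at the criterion in edgeR and unadjusted p values of 0.342 or more. PARP1, a sensor of strand breaks, had 40 to 94 reads across the NC libraries and 140 to 213 across the Si-LIPG libraries, and its log2 fold change was 0.24 with a standard error of 0.30.

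Of 16 genes reported here for break signaling and the choice between repair routes, 8 were tested. Of these 8, KAT5 and MDC1 were lower at the criterion, as were 12.9% of all tested genes, and 0 were higher. ATM, ATR, ATRIP, TP53BP1, CHEK1 and PAXIP1 did not meet it. KAT5, the acetyltransferase that activates the kinase ATM, fell with a log2 fold change of -1.81 with a standard error of 0.40 (edgeR adjusted p = 0.0396), and its groups did not overlap. Without NC 1 it was -1.42. MDC1, a scaffold at marked breaks, had a log2 fold change of -0.96 with a standard error of 0.41 (edgeR adjusted p = 0.192), and its groups overlapped. Scaled to all reads, the log2 fold changes of KAT5 and MDC1 were -0.35 and 0.47, so that the sign of MDC1 turned with the shift of all genes. Relative to the median of all tested genes, MDC1 was at -1.12 on both scales and KAT5 at -1.97 and -1.93. Such values hardly change with the scaling by construction. In the fits that left out 1 library, KAT5 met the criterion in all 6 fits and MDC1 in 2, missing it without NC 1, NC 3, Si-LIPG 2 or Si-LIPG 3. The adjusted p of KAT5 ranged from 0.00695 to 0.259 in these edgeR fits and was under 0.05 in 2 of them.

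Of 18 genes reported here for homologous recombination, the repair route that copies a sister chromatid, 6 were tested, with 1 higher and 1 lower at the criterion, beside 7.83% and 12.9% of all tested genes. Scaled to all reads, 5 of the 6 were higher and 0 lower at the criterion in edgeR, where 46.1% of all tested genes were higher. On that scale 0 of 4 tested genes were higher among the other end-joining factors reported here. It was 2 of 5 for the polymerase theta and PARP list and 3 of 8 for break signaling and repair choice, with 0 lower in each list. RPA1, which covers single-stranded DNA, had a log2 fold change of 1.01 with a standard error of 0.46 (edgeR adjusted p = 0.231). XRCC3, which acts in strand exchange, had a log2 fold change of -1.34 with a standard error of 0.40 (edgeR adjusted p = 0.0603). It was counted 65, 54 and 61 times across the NC libraries and 62, 54 and 60 times across the Si-LIPG libraries. Its log2 fold change was 0.19 when scaled to all reads, the opposite sign. Relative to the median of all tested genes, XRCC3 was at -1.50 with TMM factors and -1.39 on that scale, values that hardly change with the scaling by construction. With 1 library left out, XRCC3 met the criterion in all 6 fits, with a log2 fold change of -0.89 without NC 1, and RPA1 met it in 1, the fit without NC 3, and had 0.61 without NC 1.

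By RefSeq's annotation of goat (assembly ARS1.2), 9 of the 10 genes were found by name and DCLRE1C was not. Other protein genes lie within 1 kb of 6 of them: TMEM167A beside XRCC4, DESI1 beside XRCC6, ABHD13 beside LIG4, MCM4 beside PRKDC, SLC23A3 beside NHEJ1 and DPCD beside POLL. DESI1 was counted 0, 7 and 9 times in NC 1, 2 and 3 and 5, 21 and 46 times in Si-LIPG 1, 2 and 3. Its counts in Si-LIPG 2 and 3 lay above every NC library, as for XRCC6, and only Si-LIPG 1 overlapped with the NC libraries. MCM4, a subunit of the replicative helicase, had 35, 41 and 50 reads across the NC libraries and 73, 86 and 125 across the Si-LIPG libraries. DPCD had 8, 8 and 24 against 15, 10 and 22 reads, ABHD13 had 0, 0 and 2 against 0, 8 and 6, and SLC23A3 was at 0. These counts are not scaled, and reads on genes were also more across the Si-LIPG libraries, so they alone show no change of level. Whether reads of these neighbours were counted on XRCC6, PRKDC or another end-joining gene was not tested, and neighbours of DCLRE1C could not be looked up.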

How the data were processed

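RNA-seq of 3 NC and 3 Si-LIPG libraries was analysed, grouped by the sample titles. The authors deposited counts of reads per gene, 1 file per library, with 5 further rows for reads on no gene (97.1% to 99.0% of reads), which entered neither library sizes nor tests except where values are given over all reads. They also deposited FPKM values of the same genes with gene names. The submitters' processing notes list fastp, HISAT2, SAMtools and HTSeq without versions. The genome build and the strand setting are not given in the sources used here. FPKM over count gave the gene lengths.

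Counts were kept by edgeR's filterByExpr (6574 genes), normalized by TMM and tested with edgeR 4.0.16 (quasi-likelihood) in R 4.3.3, with Benjamini-Hochberg adjustment over all tested genes. DESeq2 1.42.0, which the study names, and limma 3.58.1 were alternatives. The log2 CPM values behind the principal components used a prior count of 2. Replicates differed by more than sampling noise (chi-square over its degrees of freedom, 4.21 to 12.5). All members were named, and of the other repair lists each gene at the criterion among those reported. Some genes of these lists, including 1 at the criterion, are not reported here and are left out of the list counts. None of them is in the list of polymerase theta and PARP proteins. The members, lists and tests were chosen with earlier results of these data known. No sequence was used.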

Additional observations from a re-analysis of the deposited data

How the results depend on the processing

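The number of end-joining genes at the criterion was 3 in the main comparison and 2 or 3 under every alternative but 1: with at least 10 counts in every library only DCLRE1C could be tested, and the count was 1. When a library was left out it was 2 or 3, and 3 with a fold change over 2. This count is a description only, as XRCC6 and PRKDC passed the filter through the Si-LIPG libraries. Of all tested genes, 7.83% were higher and 12.9% lower at the criterion in the main comparison. Scaled to all reads, these shares were 46.1% and 0.0304%. XRCC6, PRKDC and DCLRE1C kept their direction under every alternative in which they could be tested. Scaled to all reads and with limma on log2(FPKM + 1) or log2(FPKM + 0.1), DCLRE1C missed the criterion, with log2 fold changes of -0.16, -0.98 and -1.00. With DESeq2 the adjusted p was 0.0108 for DCLRE1C and 0.160 for XRCC6, and none was given for PRKDC. The number of all genes at the criterion was 1361 (515 higher, 846 lower), 3032 when scaled to all reads (3030 higher, 2 lower), 2044 without a filter and 1948 with library sizes alone (1535 higher, 413 lower), and it lay between 844 and 1525 when a library was left out. Genes with an adjusted p under 0.05 numbered 427 with edgeR and 620 with DESeq2. It was 100 with library sizes alone, 750 scaled to all reads and 714 with at least 10 counts in every library. With limma it was 0 on log2(FPKM + 1), where 1761 genes had an unadjusted p under 0.05, and 9 on log2(FPKM + 0.1). In edgeR fits with 1 library left out it was between 0 and 648, being 0 without NC 1, NC 2, Si-LIPG 2 or Si-LIPG 3, where the unadjusted p was under 0.05 for 1196, 1488, 869 and 844 genes. The cause of these differences was not tested. The ratio of the shares of reads on genes, 1.86, lay between 1.66 and 2.10 when a library was left out. With the replicate number as a block, 925 genes had an adjusted p under 0.05, 3 end-joining genes met the criterion, and the adjusted p of PRKDC was 0.0443 in edgeR's test. This value is a description only, as PRKDC passed the filter through the Si-LIPG libraries. Deviations of same-numbered libraries correlated at 0.21, 0.0639 and 0.11, and not every library correlated best with its own number, so the numbers were not taken to pair the libraries. Depth limits XRCC5, POLL, POLM, XRCC4, LIG4 and NHEJ1, which could be fitted only without a filter or with DESeq2, and 0 of these 6 met the criterion there.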
